A study of Mus musculus with 8 samples.

Results

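The saline-treated group of Shank3-mutant mice was compared with wild-type mice and romidepsin-treated mutants joined as 1 reference, in RNA sequencing of mouse prefrontal cortex. The samples were taken by their labelled groups, which gave all 8 libraries of the series: 3 of the saline group, 3 of wild type and 2 of the romidepsin group. The contrast was saline minus the mean of the 2 other groups, with wild type and romidepsin each weighted 0.5, so that each library enters once. The saline and romidepsin groups were male mice heterozygous for Shank3+/ΔC, an allele that lacks exon 21 and so the C-terminal part of the protein, and the wild-type males were littermates of like age. Both mutant groups received intraperitoneal injections once a day for 3 days, of saline or of romidepsin at 0.25 mg/kg, and prefrontal cortex was collected 1 day after the third injection. Ages are 5 to 6 weeks in the sample labels, while the series' design text has an upper age of 8 weeks. The labels name no injection for the wild-type mice, so for the wild-type side of the contrast the genotype and the saline injections cannot be told apart. The labels do not say whether libraries of a group came from separate mice, and any p-value given here reflects just the spread among these libraries, which may be technical.

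Shank3 is a scaffold protein of the postsynaptic density at excitatory synapses, where it links glutamate receptor complexes to Homer proteins and the actin cytoskeleton. Romidepsin inhibits class I histone deacetylases, enzymes that remove acetyl groups from histones and in doing so usually lower transcription. The contrast asks which genes in saline-treated mutants differ from the mean of wild type and drug-treated mutants. A wide difference from only 1 of these groups can also give a small p. The labels call the cells neurons although the tissue was slices of prefrontal cortex, and the libraries held glial and vessel transcripts as well: Gfap, an intermediate filament of astrocytes, stood at 66.8, 103 and 140.4 CPM (counts scaled to 1000000 per library) in wild type, 114, 129.7 and 90.9 under saline and 67.97 and 87.97 under romidepsin.

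The libraries held 7783538 to 15156318 counts on genes and detected 16993 to 17763 genes, with the saline libraries at both ends of the depth range. Of 24420 genes in all tables, 14809 had enough counts to be tested. Saline replicate 2 stood farthest from the rest on the first principal component, at -35.1 against -1.26 to 24.2 for the other 7 libraries. It also had the largest share of its gene counts on the ribosomal RNA gene Rn45s, 1.12% against 0.316% to 0.611% in the other 7. The part of this in other results was not tested. Shank3 itself stood at 299, 308 and 348 CPM in wild type, 316, 252 and 301 under saline and 315 and 313 under romidepsin, with overlapping groups and a joined log2 difference of -0.12 (SE 0.08). These counts cover the whole gene, including exons outside the deletion, and so do not check the genotype.

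No gene passed the joined contrast at an adjusted p under 0.05 by edgeR's quasi-likelihood test (0 of 14809 genes, 0% of those tested). The smallest adjusted p was 0.246, shared by Prss23, a secreted serine protease that had the smallest unadjusted p, and the pseudogene Tmem181b-ps. At an unadjusted p under 0.05, 453 genes were higher (3.06% of genes tested) and 517 lower (3.49%), 6.55% in all, and limma-voom, which also passed 0 genes, had 931 genes under that threshold. DESeq2 passed 16 genes on the same counts, 4 higher and 12 lower. All 3 saline libraries lay above all 5 other libraries for 389 genes (2.63%) and below them for 420 genes (2.84%). Leaving out saline replicate 1 gave 4 higher and 4 lower genes with an adjusted p under 0.05, and leaving out wild-type replicate 3 gave 0 higher and 8 lower. Without saline replicate 2, 0 genes passed and 268 higher and 319 lower genes had an unadjusted p under 0.05. The values that follow therefore describe genes that stood lowest in p and lists of known function, not genes that passed, and "higher" and "lower" give only the side on which a value fell.

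Among well expressed genes the lower side was the fuller. When genes were put into 4 equal classes by mean expression, the highest class had 168 lower and 78 higher genes at an unadjusted p under 0.05, while the lowest class had 81 lower and 114 higher. The 12 named genes with the smallest p on the lower side had all 3 saline libraries below all 5 others, with adjusted p from 0.246 to 0.372. Prss23 (chr7:89507783-89527187, mouse GRCm38.p6) stood at 37.2, 32.4 and 29.6 CPM in wild type, 18.2, 19.6 and 22.7 under saline and 29.7 and 32.5 under romidepsin. Every saline library lay under the lowest of the other 5, and the reference groups overlapped each other. The log2 difference was -0.68 (SE 0.11), with a 95% interval of -0.91 to -0.45, and it passed in DESeq2 (adjusted p = 0.00138), without the low-count filter (adjusted p = 0.0152) and without wild-type replicate 3 (adjusted p = 0.00805), while its other alternatives in edgeR and limma-voom did not pass.

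Nefh, the heavy neurofilament subunit of large axons, stood at 60.6, 70.5 and 48.7 CPM in wild type, 40.9, 38.9 and 44.4 under saline and 55.8 and 61.6 under romidepsin. The saline libraries lay below the others, and wild-type replicate 3 was the closest of the 5 to them. Its log2 difference was -0.52 (SE 0.11), with -0.54 against wild type and -0.51 against romidepsin, 2 values that share the saline libraries. Myh9, the heavy chain of non-muscle myosin IIA, stood at 131, 142 and 134 CPM in wild type, 116, 99.1 and 104 under saline and 129 and 131 under romidepsin, a log2 difference of -0.32 (SE 0.07). Tanc1, a scaffold of the postsynaptic density, stood at 22.99, 22.1 and 25.8, 14.2, 13.5 and 13.6 and 15.5 and 19.7 CPM in the same order. The romidepsin libraries lay between the other groups there, with a romidepsin minus wild type log2 difference of -0.43 (SE 0.14), and the joined log2 difference was -0.56 (SE 0.11). Plekha2, an adaptor that binds phosphoinositides at the plasma membrane, had saline levels of 17.95, 14.6 and 20.1 CPM against 27.3, 26.6 and 26.1 in wild type and 24.9 and 22.6 with romidepsin.

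Adgrl4, an adhesion receptor of endothelial cells, stood at 20.2, 24.3 and 27.05 CPM in wild type, 16.2, 11.4 and 13.3 under saline and 21.97 and 18.1 under romidepsin, a log2 difference of -0.66 (SE 0.14). Col4a2, a chain of basement membrane collagen, stood at 73.9, 83.4 and 90.4, 60.9, 43.8 and 63.1 and 77.3 and 78.6 CPM in that order. Saline replicate 2 was the lowest library in both genes, and the Col4a2 log2 difference was -0.52 (SE 0.11) with all saline libraries and -0.37 without saline replicate 2. Col4a1, its partner chain, which is encoded next to it and was looked up after Col4a2 was seen, stood at 58.9, 59.3 and 71.3, 51.4, 33.2 and 47.1 and 59.8 and 60.1 CPM. These chains were the 2 members at an unadjusted p under 0.05 in a list of basement membrane genes added after values were seen, in which 7 of 14 tested members stood higher and 7 lower, with a median log2 difference of -0.03. Adam19, a membrane protease that sheds growth factor precursors, had saline levels of 26.01, 27.03 and 28.3 CPM, against 44.6, 45.9 and 31.98 in wild type and 37.2 and 39.2 with romidepsin. Its saline libraries lay close together, and wild-type replicate 3 was again the nearest library.

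Among the 12 lower genes, 3 lie on distal chromosome 8. Cbfa2t3 (chr8:122625136-122699332), a corepressor of the ETO family, stood at 58.03, 56.9 and 60.5 CPM in wild type, 42.2, 39.8 and 37.7 under saline and 47.5 and 51.5 under romidepsin, a log2 difference of -0.43 (SE 0.08). Banp (chr8:121947972-122029260), a DNA-binding protein of the nuclear matrix, stood at 33.7, 38.9 and 39.98, 26.7, 22.5 and 19.5 and 30.3 and 32.5 CPM in that order, a log2 difference of -0.57 (SE 0.11). Gse1 (chr8:120228501-120581383), a protein found with histone deacetylase complexes, stood at 93.7, 95.6 and 100.3, 71.4, 54.5 and 73.9 and 81.6 and 83.9 CPM, a log2 difference of -0.42 (SE 0.09). In all 3 the romidepsin libraries lay between the other groups: romidepsin minus wild type was -0.24 (SE 0.09) for Cbfa2t3, -0.26 (SE 0.13) for Banp and -0.22 (SE 0.11) for Gse1. The Gse1 value was -0.30 without saline replicate 2. In the window from Gse1 to Spata2l (chr8:120228501-123236263), which was chosen after these values were seen and starts and ends at lower genes, 23 of 42 tested genes stood lower, with a median log2 difference of -0.05. At an unadjusted p under 0.05, 7 were lower and 0 higher, beside 3.49% and 3.06% of all genes. The last of the 12, Gfod1, a predicted oxidoreductase, stood at 239.6, 261 and 235 CPM in wild type, 199, 189 and 172 under saline and 215 and 237 under romidepsin.

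**Figure D1:**
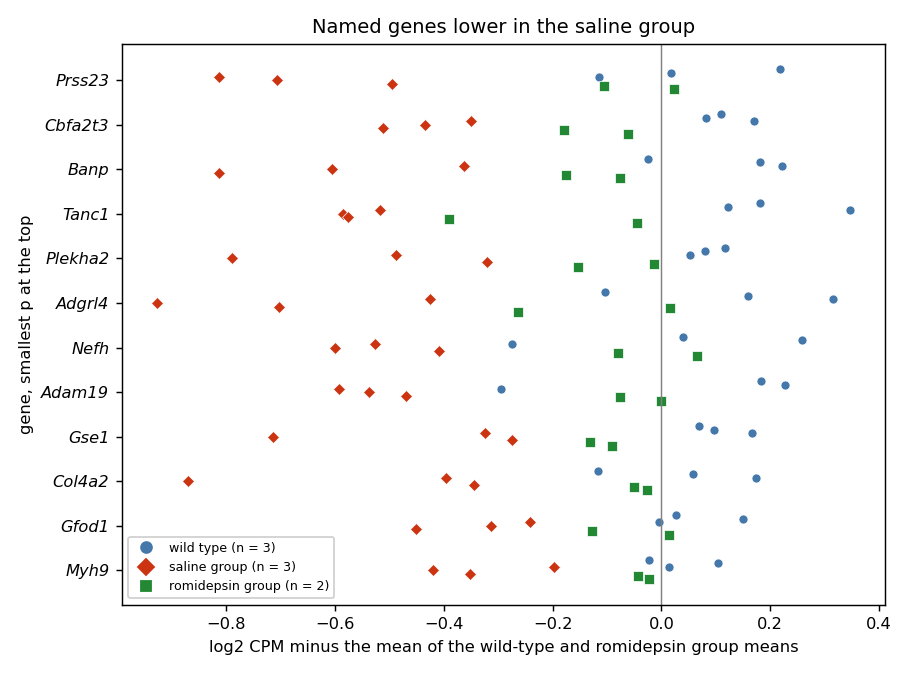
Each point is 1 library, as log2 CPM minus the mean of the wild-type and romidepsin group means (x axis), for the 12 named genes with the smallest p on the lower side (y axis). The 3 saline libraries lie left of all 5 other libraries in each gene, and in Cbfa2t3, Banp, Tanc1, Plekha2 and Gse1 both romidepsin libraries lie left of all wild-type libraries.

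Among genes whose mean log2 CPM reached 1, Thbs2 had the smallest p on the higher side. Thbs2, a thrombospondin of the extracellular matrix made by fibroblasts and other cells, stood at 6.82, 7.004 and 6.82 CPM in wild type, 10.7, 10.7 and 10.3 under saline and 6.99 and 6.89 under romidepsin. The saline libraries lay together above the other 5, which also lay together, and the gap to the nearest other library was 0.54 on the log2 scale. The log2 difference was 0.61 (SE 0.13), with an adjusted p of 0.363. Lcorl, a nuclear protein, stood at 24.2, 22.9 and 26.7, 32.6, 35.5 and 29.8 and 25.3 and 21.2 CPM, and Phf13, a reader of methylated histone H3, at 20.6, 17.5 and 18.7, 23.5, 26.7 and 26.9 and 20.4 and 19.7 CPM in the same order. In both genes the saline libraries lay above all others, with log2 differences of 0.45 (SE 0.10) for Lcorl and 0.39 (SE 0.10) for Phf13. Tshz2, a zinc finger factor of deep cortical layers, stood at 26.8, 29.4 and 26.3 CPM in wild type, 39.97, 31.2 and 36.6 under saline and 28.96 and 25.2 under romidepsin.

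Trh, the precursor of thyrotropin-releasing hormone, had the widest log2 difference of the 12 higher genes at 1.34 (SE 0.34), from low levels of 1.01, 0.904 and 1.72 CPM in wild type, 1.97, 5.03 and 4.23 under saline and 1.67 and 1.65 under romidepsin. Saline replicates 2 and 3 carried it, and leaving out saline replicate 2 gave 1.04 and leaving out saline replicate 1 gave 1.70. Nrep, a small protein of neuronal growth and repair, stood at 57.02, 61.01 and 52.7, 75.3, 74.2 and 73.6 and 66.9 and 62.97 CPM in that order. Its romidepsin libraries lay between the other groups, and the joined log2 difference was 0.29 (SE 0.07). Ppm1k, a mitochondrial phosphatase of branched-chain amino acid breakdown, stood at 92.99, 91.2 and 80.7 CPM in wild type, 104, 121 and 109 under saline and 95.6 and 96.3 under romidepsin.

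Etnppl and Zfpm2 were among the 12 although their groups overlapped. Etnppl, an astrocyte enzyme that breaks down phosphoethanolamine, stood at 16.3, 16.6 and 23.2 CPM in wild type, 28.1, 23.6 and 16.8 under saline and 10.9 and 11.7 under romidepsin. Saline and wild type overlapped, and the romidepsin libraries were the lowest of the 8, so the joined log2 difference of 0.67 (SE 0.16) combined 0.31 against wild type with 1.03 against romidepsin. Zfpm2, a cofactor of GATA factors, stood at 21.4, 24.9 and 18.3, 25.9, 33.9 and 24.6 and 16.5 and 20.2 CPM in that order, with saline replicate 3 within the wild-type range.

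**Figure D2:**
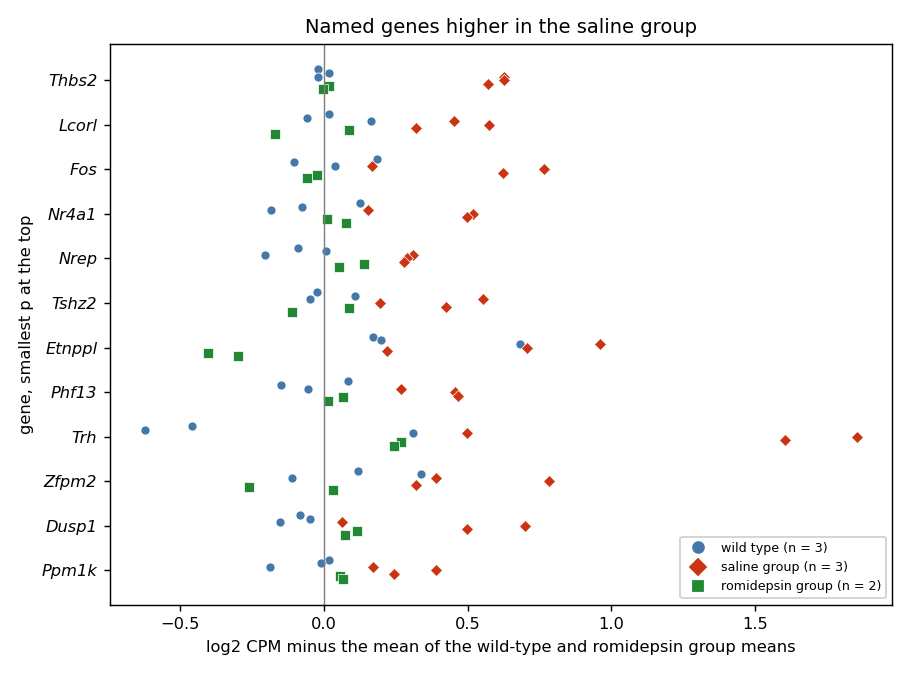
Each point is 1 library, as log2 CPM minus the mean of the wild-type and romidepsin group means (x axis), for the 12 named genes with the smallest p on the higher side (y axis). The saline libraries lie right of all others in 8 genes, and overlap them in Fos, Etnppl, Zfpm2 and Dusp1; in Fos and Dusp1 saline replicate 1 is the overlapping library.

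Immediate early genes are switched on within minutes of synaptic activity or stress, without new protein synthesis, largely through calcium signalling to the factor CREB and through serum response factor. CREB binds the cAMP response element, whose full form is TGACGTCA and whose half-site is TGACG. The 250 bases before the transcription start of the 4 immediate early genes with the smallest p are shown because 3 of these genes were also among the 12 higher genes. The sequences are RefSeq's for GRCm38.p6, 5′ to 3′ on the gene's strand, from chr12:85473640-85473889 (+) for Fos, chr15:101266596-101266845 (+) for Nr4a1, chr17:26508473-26508722 (-) for Dusp1 and chr8:84978749-84978998 (-) for Junb. Capitals mark TGACG on either strand (CGTCA is its reverse complement).
Fos: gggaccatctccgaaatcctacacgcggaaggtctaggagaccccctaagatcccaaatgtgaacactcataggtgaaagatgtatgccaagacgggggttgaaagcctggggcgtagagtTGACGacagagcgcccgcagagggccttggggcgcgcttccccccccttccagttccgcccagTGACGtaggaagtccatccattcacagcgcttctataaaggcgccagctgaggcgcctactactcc
Nr4a1: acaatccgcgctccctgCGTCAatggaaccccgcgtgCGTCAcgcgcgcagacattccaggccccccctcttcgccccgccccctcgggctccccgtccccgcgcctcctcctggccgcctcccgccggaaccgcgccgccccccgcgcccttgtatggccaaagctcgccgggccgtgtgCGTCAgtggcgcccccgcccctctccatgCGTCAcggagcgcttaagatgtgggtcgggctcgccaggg
Dusp1: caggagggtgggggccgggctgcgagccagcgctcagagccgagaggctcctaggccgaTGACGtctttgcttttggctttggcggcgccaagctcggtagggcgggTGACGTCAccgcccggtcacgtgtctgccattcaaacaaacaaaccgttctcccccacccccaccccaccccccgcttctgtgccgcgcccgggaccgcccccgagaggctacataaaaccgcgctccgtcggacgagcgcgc
Junb: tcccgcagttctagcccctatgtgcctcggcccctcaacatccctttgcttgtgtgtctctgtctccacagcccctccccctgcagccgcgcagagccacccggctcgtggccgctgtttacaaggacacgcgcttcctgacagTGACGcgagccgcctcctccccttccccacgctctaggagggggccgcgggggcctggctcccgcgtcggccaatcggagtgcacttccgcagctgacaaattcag
A script found the half-site at 2 places for Fos, 4 for Nr4a1, 3 for Dusp1 and 1 for Junb. The full form occurred 1 time, in Dusp1, where it accounts for 2 overlapping half-sites. Of 32851 promoters of this length, 17.8% held TGACG on either strand, 3.9% at 2 or more places and 0.688% at 3 or more, and 1.55% held TGACGTCA. Of the 39 immediate early genes, 31 had a matched promoter, and 21 of these genes held the half-site and 4 the full form in any of their promoters. These counts are per gene and the shares above per promoter, so they do not compare directly. A match of letters is a description of the window and not a measured binding site.

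Of the 39 immediate early genes tested, 30 stood higher in the saline group and 9 lower, with a median log2 difference of 0.10 beside 0.0049 for all genes, of which 51.4% had a log2 difference above 0. At an unadjusted p under 0.05, 9 were higher and 0 lower, against 3.06% and 3.49% of all genes; 3 had all saline libraries above all others, against 2.63%, and 0 passed the adjusted threshold. Fos, a subunit of the AP-1 factor, stood at 47.6, 38.9 and 43.04 CPM in wild type, 46.98, 71.3 and 64.5 under saline and 41.2 and 40.2 under romidepsin. Saline replicates 2 and 3 lay above all other libraries and saline replicate 1 lay within the wild-type range. The log2 difference of 0.53 (SE 0.12) had an adjusted p of 0.486 in edgeR, and passed in DESeq2 (adjusted p = 0.0346) and without saline replicate 1 (0.70, adjusted p = 0.0124).

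Nr4a1, an orphan nuclear receptor induced by activity, stood at 139, 121 and 112 CPM in wild type, 142, 183 and 181 under saline and 129 and 135 under romidepsin, with all saline libraries above the rest by a small gap. Its log2 difference was 0.39 (SE 0.09), and 0.33 without saline replicate 2. Dusp1, a phosphatase that switches off MAP kinases, stood at 34.3, 35.1 and 32.6, 37.9, 58.99 and 51.3 and 39.3 and 38.2 CPM in that order. Saline replicate 1 lay within the range of the others, and the log2 difference of 0.43 (SE 0.12) became 0.61 without it (adjusted p = 0.0328) and 0.28 without saline replicate 2. Junb, a second AP-1 subunit, stood at 73.6, 52.6 and 68.4 CPM in wild type, 70.8, 110.02 and 95.03 under saline and 77.03 and 67.7 under romidepsin. The same libraries, saline replicates 2 and 3, were the highest of the 8.

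Egr2, a zinc finger factor of the Egr family, stood at 19.6, 16.8 and 18.4 CPM in wild type, 19.2, 26.7 and 30.01 under saline and 19.01 and 21.7 under romidepsin, and Ier2, a short nuclear protein, at 10.4, 8.81 and 9.02, 8.91, 16.9 and 15.4 and 9.85 and 10.1 CPM. In both, saline replicate 1 lay among the reference libraries and saline replicates 2 and 3 above all of them. Btg2, an antiproliferative cofactor, had the widest log2 difference of the list at 0.75 (SE 0.30) and the broadest interval of those with an unadjusted p under 0.05, 0.06 to 1.43. Some other activity genes lay near 0 or on the lower side. Arc, which acts at dendrites on receptor trafficking, had a log2 difference of 0.02 (SE 0.14), Npas4, a neuron-specific activity factor, -0.01 (SE 0.35), Homer1 -0.18 (SE 0.12) and Nptx2, a secreted pentraxin that gathers AMPA receptors, -0.20 (SE 0.11). Fosb, the AP-1 subunit nearest to Fos, had 0.14 (SE 0.11), and Egr1 0.16 (SE 0.11). The list medians by library were 0.04, 0.21 and 0.14 in saline replicates 1, 2 and 3, 0.04, -0.04 and 0.01 in wild type and -0.03 and -0.01 with romidepsin.

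**Figure D3:**
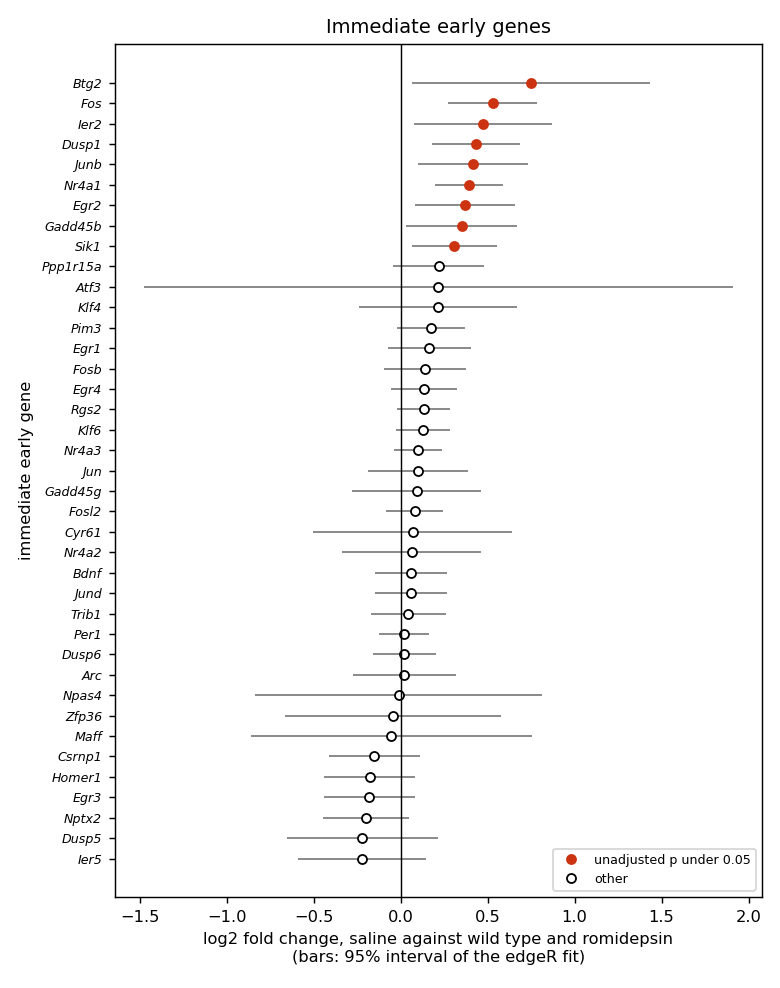
Points are log2 differences of the joined contrast for the 39 immediate early genes (y axis), with 95% intervals from the edgeR fit (x axis, log2 scale). The 9 filled points, from Btg2 at the top to Sik1, are the members with an unadjusted p under 0.05, and the intervals of all other members include 0.

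In the lists of channel and axon genes 0 members passed. For the counts that follow, 3.49% of all genes tested were lower and 3.06% higher at an unadjusted p under 0.05. Of 43 potassium channel genes, 26 stood lower, 6 of them at that threshold (3.49% of all genes), and 0 higher members met it (3.06%), with a median log2 difference of -0.03. Kcnc1, a Kv3 subunit that shortens action potentials in fast-spiking neurons, stood at 196, 203 and 207 CPM in wild type, 176, 160 and 189.8 under saline and 207 and 216 under romidepsin. All saline libraries lay below all others there, with a log2 difference of -0.24 (SE 0.07).

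Of 27 sodium, calcium and related cation channel genes, 19 stood lower, 4 of them at an unadjusted p under 0.05 (3.49% of all genes), and 0 higher members met that threshold. Hcn2, a hyperpolarisation-activated channel, stood at 123, 125 and 127 CPM in wild type, 109, 85.9 and 113 under saline and 122 and 122 under romidepsin, with saline replicate 2 the lowest and no overlap. Scn4b, a sodium channel beta subunit, had a wider log2 difference of -0.85 (SE 0.29) but a wide spread, at 83.9, 92.3 and 46.3 CPM in wild type, 26.3, 33.4 and 47.6 under saline and 46.2 and 61.4 under romidepsin. Saline replicate 3 lay above wild-type replicate 3 and romidepsin replicate 1 there. Of 15 neurofilament and axon cytoskeleton genes tested (of 16 listed), 10 stood lower, 4 of them at an unadjusted p under 0.05 (3.49% of all genes), with 1 higher member at that threshold. Ina, the internexin of the same filament as Nefh, stood at 166, 155 and 136, 118, 122 and 135 and 136 and 151 CPM, and Sptbn4, the spectrin of nodes and initial segments, at 252, 253 and 269.8, 229, 185 and 229 and 245 and 253 CPM. Gap43, a growth cone protein, was that higher member, with 0.21 (SE 0.08).

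Of 40 postsynaptic scaffold and adhesion genes, 16 stood higher and 24 lower, with 3 and 5 at an unadjusted p under 0.05 (3.06% and 3.49% of all genes). Besides Tanc1, Baiap2, the insulin receptor substrate that couples Shank3 and small GTPases to actin, stood at 409, 396 and 365 CPM in wild type, 324, 316 and 315 under saline and 347 and 382 under romidepsin, below all others in each saline library. Of the 3 higher members at that threshold, Cdh2, N-cadherin, stood at 131, 129 and 128, 147, 153 and 145 and 126 and 136 CPM, and Nlgn1, the neuroligin of excitatory synapses, at 60.7, 65.8 and 55.1, 73.1, 79.7 and 66.9 and 63.6 and 66.8 CPM. Ctnnb1, beta-catenin, which binds the tail of N-cadherin and also carries Wnt signals, stood at 540.3, 528 and 565 CPM in wild type, 606, 621 and 607 under saline and 567 and 574 under romidepsin. All saline libraries of these 3 genes lay above the rest, and the log2 differences were 0.19 (SE 0.06), 0.22 (SE 0.08) and 0.13 (SE 0.06). Of 36 presynaptic genes, 23 stood lower, 6 of them at an unadjusted p under 0.05 (3.49% of all genes), with 2 higher members at that threshold (3.06%). Bsn, the bassoon scaffold of the active zone, stood at 877, 819 and 799.7 CPM in wild type, 735, 699 and 736 under saline and 822 and 876 under romidepsin.

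The receptors at the same synapses were close to the reference. Of 28 glutamate receptor genes, 17 stood higher and 11 lower, with a median of 0.04. At an unadjusted p under 0.05, 1 was higher and 0 lower, beside 3.06% and 3.49% of all genes. That member, Grm2, is a presynaptic metabotropic receptor. Grm2 stood at 57.6, 50.5 and 47.2 CPM in wild type, 55.8, 69.05 and 65.8 under saline and 58.5 and 47.9 under romidepsin. Grin2b, an NMDA receptor subunit, had a log2 difference of 0.24 (SE 0.11). Of 20 GABA receptor and synthesis genes, 0 met that threshold on either side. Of 57 actin regulators, 25 stood higher and 32 lower. At that threshold 0 were higher and 4 lower, beside 3.06% and 3.49% of all genes, with Myh9 among the lower.

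Endothelial and mural markers, genes of the blood-brain barrier and of pericytes, stood lower in 28 of 30, with a median log2 difference of -0.19. At an unadjusted p under 0.05, 9 were lower and 0 higher, beside 3.49% and 3.06% of all genes, and 0 passed the adjusted threshold. Leaving out saline replicate 1 moved the median to -0.35, and leaving out saline replicate 2 or romidepsin replicate 1 moved it to -0.11. Flt1, a receptor of vascular endothelial growth factor, stood at 56.5, 59.5 and 69.4 CPM in wild type, 47.8, 31.9 and 38.3 under saline and 56.1 and 48.8 under romidepsin. Saline replicate 1 was the highest of the 3, just below the lower romidepsin library, and the log2 difference of -0.52 (SE 0.12) was -0.70 without it. Rgs5, a pericyte regulator of G protein signals, stood at 47.7, 51.9 and 57.5 CPM in wild type, 44.5, 36.4 and 38.99 under saline and 50.4 and 45.4 under romidepsin. Abcc9, the pericyte subunit of a potassium channel, stood at 9.18, 11.9 and 11.1, 9.70, 6.92 and 6.93 and 11.7 and 13.8 CPM, and Pecam1, an endothelial junction protein, at 19.3, 24.03 and 25.2, 18.2, 12.3 and 13.98 and 20.4 and 15.9 CPM. The groups overlapped in both of these through saline replicate 1. The median over the list was -0.02, -0.43 and -0.29 in saline replicates 1, 2 and 3, -0.08, -0.04 and 0.20 in wild type and 0.13 and -0.16 with romidepsin, with saline replicate 1 within the range of the reference libraries. The summed level was 1097, 890.1 and 963 CPM in the saline libraries, 1019, 1109 and 1218 in wild type and 1178 and 1088 with romidepsin. In these bulk libraries fewer vessel cells and less RNA per cell cannot be told apart.

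Meningeal and fibroblast markers, genes of the membranes that cover the brain, stood on the higher side in 23 of 25, with a median log2 difference of 0.54, which was 0.23 without saline replicate 1 and 0.39 to 0.76 without any other library. At an unadjusted p under 0.05, 7 were higher and 0 lower, beside 3.06% and 3.49% of all genes. The libraries did not agree: the list median was 0.91, 0.62 and -0.18 in saline replicates 1, 2 and 3, -0.24, -0.37 and 0.17 in wild type and 0.38 and -0.07 with romidepsin. Saline replicate 3 lay below the mean of the reference groups and within the range of the wild-type libraries. Slc13a4, a sulfate transporter of the meninges, stood at 6.74, 5.35 and 9.80 CPM in wild type, 19.1, 15.2 and 6.93 under saline and 9.46 and 6.89 under romidepsin, and Slc47a1, a transporter of organic cations, at 1.26, 0.979 and 0.706, 3.67, 5.24 and 1.54 and 1.77 and 2.88 CPM. Thbs2 is on this list too, and its levels in saline replicates 1, 2 and 3 were 10.7, 10.7 and 10.3 CPM. The summed level of the list was 1107, 1075 and 506 CPM in the saline libraries, 479.5, 440.4 and 750.1 in wild type and 723 and 561 with romidepsin, and its part in other results was not tested.

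Olfactory and septal markers, genes of regions that border prefrontal cortex, stood higher in 18 of the 21 tested (of 22 listed), 8 of them at an unadjusted p under 0.05 (3.06% of all genes) and 0 lower (3.49%). Eomes, a T-box factor of olfactory bulb projection neurons, had 4, 5 and 12 counts in wild type, 2, 36 and 38 under saline and 1 and 1 under romidepsin. Saline replicates 2 and 3 were the high libraries, and saline replicate 1 was as low as the reference. Eomes had enough counts to be tested only with the saline libraries included, so the filter favoured its higher side. Calb2, calretinin, stood at 12.2, 9.94 and 19.99 CPM in wild type, 16.9, 27.5 and 23.7 under saline and 14.97 and 13.99 under romidepsin, and Gng4, a G protein subunit, at 48.1, 43.8 and 51.6, 57.9, 71.5 and 61.05 and 57.7 and 54.02 CPM. Trh belongs to this list as well. The list median was 0.13, 0.47 and 0.24 in saline replicates 1, 2 and 3, -0.10, -0.22 and 0.27 in wild type and -0.09 and 0.01 with romidepsin, so that wild-type replicate 3 lay within the saline range. The part of this list in the levels of Trh, Fos and other genes that were high in saline replicates 2 and 3 was not tested.

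Markers of other cell classes differed between libraries of one group. Oligodendrocyte markers had list medians of -0.02, -0.38 and 0.41 under saline and -0.30, 0.36 and 0.34 in wild type, and 14 of 27 tested members stood higher. Gpr17, a receptor of oligodendrocyte precursors on the way to myelination, stood at 92.2, 114 and 135 CPM in wild type, 104, 86.2 and 92.1 under saline and 128 and 126 under romidepsin. Of 22 astrocyte markers, 10 stood higher and 12 lower, and of 21 microglia markers 7 stood higher and 14 lower. Lag3, an immune receptor on the microglia list, stood at 6.32, 7.16 and 7.84 CPM in wild type, 9.11, 7.13 and 7.44 under saline and 18.03 and 14.7 under romidepsin, with the 2 romidepsin libraries above all others and the saline libraries beside wild type. Of 33 interneuron identity genes tested (of 34 listed), 15 stood higher and 18 lower.

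**Figure D4:**
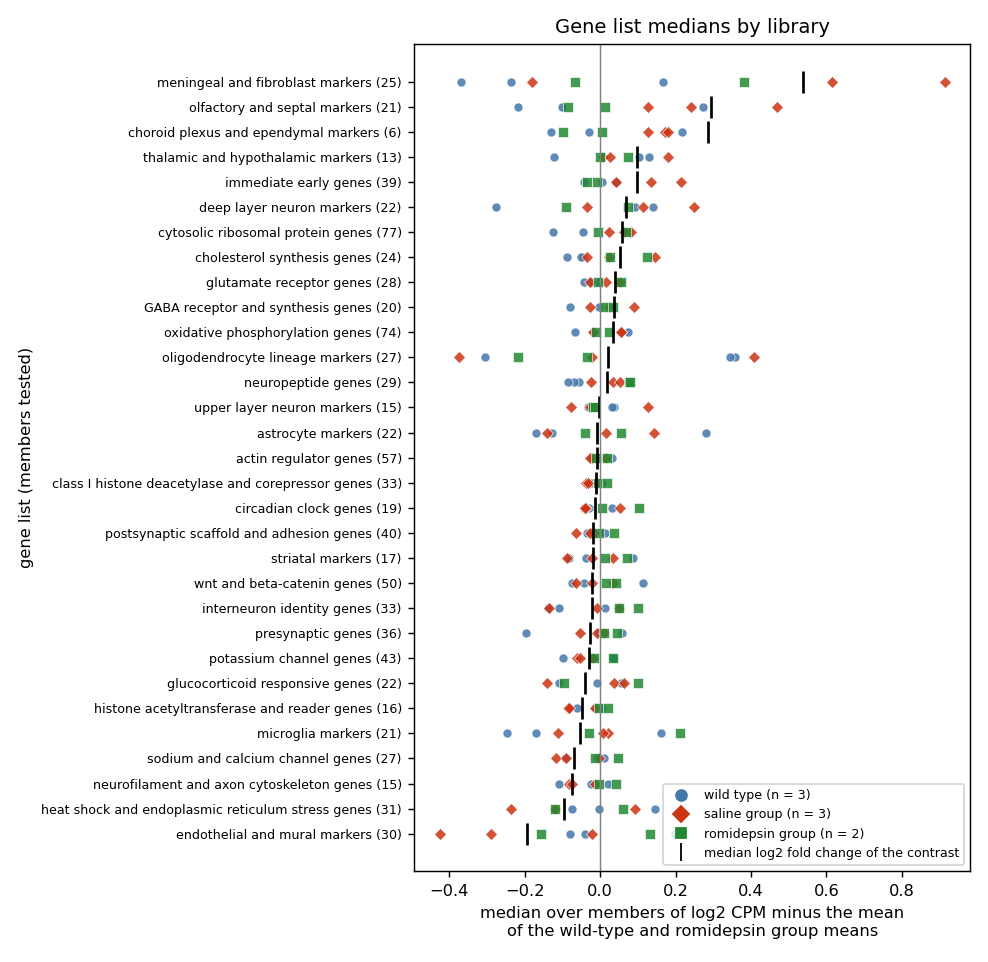
For each gene list (y axis, with the number of members tested), points give each library's median over members of log2 CPM minus the mean of the wild-type and romidepsin group means (x axis), and the black bar the median log2 difference of the joined contrast. Saline replicates lie apart from each other in the meningeal, oligodendrocyte and endothelial lists, with saline replicate 3 at -0.18 in the meningeal list against 0.91 and 0.62 in the other 2.

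Stress genes of the endoplasmic reticulum and heat shock response stood lower in 23 of 31, with a median of -0.10, with 7 lower and 0 higher at an unadjusted p under 0.05, beside 3.49% and 3.06% of all genes. The saline libraries lay apart: the list median was -0.12, 0.09 and -0.24 in saline replicates 1, 2 and 3, -0.08, 0.14 and -0.00 in wild type and -0.12 and 0.06 with romidepsin, and saline replicate 2 had the highest summed level of the 8, 9764 CPM. The median of the contrast moved to -0.22 when saline replicate 2 was left out, to -0.03 for saline replicate 3, to -0.15 for wild-type replicate 1, to -0.16 for romidepsin replicate 1 and to -0.02 for romidepsin replicate 2. Herpud1, which helps to clear misfolded proteins, stood at 45.4, 56.4 and 48.6 CPM in wild type, 39.6, 41.9 and 37.4 under saline and 44.2 and 50.7 under romidepsin. Ddit3, the CHOP factor of the unfolded protein response, stood at 25.9, 26.4 and 28.2, 22.7, 24.1 and 23.1 and 27.5 and 28.6 CPM in that order. The saline libraries were below all others in both genes, with log2 differences of -0.30 (SE 0.09) and -0.24 (SE 0.09). Hspb1, a small heat shock protein, had -0.71 (SE 0.31) with wide spread among the wild-type libraries, at 5.64, 11.1 and 15.9 CPM.

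Romidepsin's own targets and their partners were near the reference. The deacetylase gene Hdac1 had 23.4, 24.1 and 24.2 CPM in wild type, 25.2, 22.5 and 24.2 under saline and 23.6 and 19.7 under romidepsin, and Hdac2 stood at 76.3, 74.5 and 62.7, 74.2, 76.8 and 69.5 and 78.5 and 74.2 CPM. Their log2 differences were 0.08 (SE 0.10) and -0.00 (SE 0.08), and that of Hdac3 was -0.15 (SE 0.08). Of 33 genes of these deacetylases and their corepressors, 14 stood higher and 19 lower. Among 16 histone acetyltransferases and readers of acetylation, 11 stood lower. At an unadjusted p under 0.05, 3 were lower and 0 higher, beside 3.49% and 3.06% of all genes. The median of that list was -0.05, and -0.0066 with offsets for GC content and transcript length. All saline libraries lay below all others in Kat8, which acetylates histone H4, at 18.95, 17.5 and 19.1, 14.9, 15.4 and 16.7 and 17.04 and 20.5 CPM, a log2 difference of -0.26 (SE 0.11).

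Housekeeping lists had small median log2 differences, though most of their members stood higher. Cytosolic ribosomal protein genes stood higher in 65 of 77, with a median of 0.06, and oxidative phosphorylation genes in 54 of 74, with a median of 0.03. Of all genes tested, 51.4% stood higher, with a median of 0.0049. At an unadjusted p under 0.05, 2 and 1 members were higher and 0 lower, beside 3.06% and 3.49% of all genes. Of 24 cholesterol synthesis genes 16 stood higher. Of 19 clock genes, 8 stood higher and 11 lower. At an unadjusted p under 0.05, 1 was higher and 2 lower, beside 3.06% and 3.49% of all genes. Per2, a repressor of the clock, stood at 56.7, 70.6 and 59.97, 50.8, 53.3 and 46.7 and 53.2 and 68.3 CPM. Arntl, its activator, stood at 46.9, 49.8 and 48.9, 36.8, 41.8 and 35.3 and 42.8 and 37.6 CPM. Ciart lay on the other side, with a log2 difference of 0.28 to 0.45 without 1 library. Among 29 neuropeptide genes and receptors, 16 stood higher and 13 lower. At an unadjusted p under 0.05, 3 were higher and 3 lower, beside 3.06% and 3.49% of all genes. All saline libraries lay above all others in 3 members (2.63% of all genes) and below them in 2 (2.84%). Vipr1, a receptor of vasoactive intestinal peptide, stood at 43.9, 45.2 and 45.5 CPM in wild type, 33.1, 37.1 and 39.4 under saline and 44.8 and 45.2 under romidepsin, below all others in each saline library. Grp, gastrin-releasing peptide, lay above all others, at 17.9, 22.5 and 16.7 CPM against 16, 13.03 and 13.1 in wild type and 14.97 and 12.8 with romidepsin.

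Among genes whose mean log2 CPM reached 1, the 6 with the widest gap on the lower side between the saline libraries and the nearest other were Pqlc3, Prss23, Ciita, Cwh43, Layn and Bank1. Ciita, the activator of MHC class II genes, stood at 3.20, 2.56 and 3.06 CPM in wild type, 1.38, 1.57 and 1.15 under saline and 2.07 and 3.19 under romidepsin, a log2 difference of -1.01 (SE 0.28). Layn, a hyaluronan receptor, stood at 5.39, 5.80 and 4.55, 2.95, 2.62 and 2.44 and 3.94 and 3.70 CPM in that order. The 6 on the higher side were Thbs2, Ccdc14, Sema3f, Rsph4a, Pcdhb20 and Gm10790. Sema3f, a secreted guidance molecule that prunes dendritic spines, stood at 4.38, 4.29 and 4.70 CPM in wild type, 6.29, 5.97 and 6.28 under saline and 4.63 and 4.32 under romidepsin. Rsph4a, a radial spoke protein of motile cilia, stood at 3.20, 3.77 and 3.53, 5.05, 6.29 and 4.75 and 3.84 and 2.98 CPM. None of the 12 had an adjusted p under 0.246.

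The 2 groups joined as the reference were tested against each other in the same fit. Of 14809 genes, 1 passed (0.00675%), and 480 had an unadjusted p under 0.05 (3.24%, with 1.46% higher and 1.78% lower under romidepsin). That gene, Tmem181b-ps, a transcribed pseudogene of a Tmem181 copy, stood at 165, 195 and 222 CPM in wild type, 91.2, 63.8 and 75.7 under saline and 85.6 and 85.5 under romidepsin. Both mutant groups lay below wild type and overlapped each other, with romidepsin minus wild type at -1.18 (SE 0.15) (adjusted p = 0.0344). The joined log2 difference of -0.74 (SE 0.12) combined -1.33 against wild type with -0.15 against romidepsin. The gene shares sequence with a near-identical copy. Where summary entries were present, reads without a unique alignment were counted apart from genes. Tmem181a, looked up after values were seen, stood at 70.0, 72.8 and 72.4 CPM in wild type. It stood at 54.2, 50.2 and 56.6 CPM under saline and 56.0 and 54.1 under romidepsin. The part of shared sequence in these levels was not tested.

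The side on which a gene fell went with the base composition of its transcript. In 5 equal classes of genes by GC content, from low to high, the share higher at an unadjusted p under 0.05 was 5.12%, 3.29%, 3.01%, 2.2% and 1.54%, and the share lower was 1.26%, 1.96%, 3.22%, 4.77% and 6.41%. The median GC content was 46.9% for the higher genes, 54.0% for the lower genes and 49.8% for all matched genes. The median difference in saline replicate 2 ran from 0.09 in the lowest class to -0.11 in the highest, in wild-type replicate 2 from 0.04 to -0.03 and in saline replicate 1 from 0.03 to -0.03. Saline replicate 3 stood at 0.01 in both classes, and wild-type replicate 1 ran the other way, from -0.01 to 0.02. With offsets for GC content and transcript length, added after the trend was seen, 0 genes passed and 419 higher and 435 lower genes had an unadjusted p under 0.05. The part of GC content in single genes was not tested beyond that fit, in which Prss23 had an adjusted p of 0.223.

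**Figure D5:**
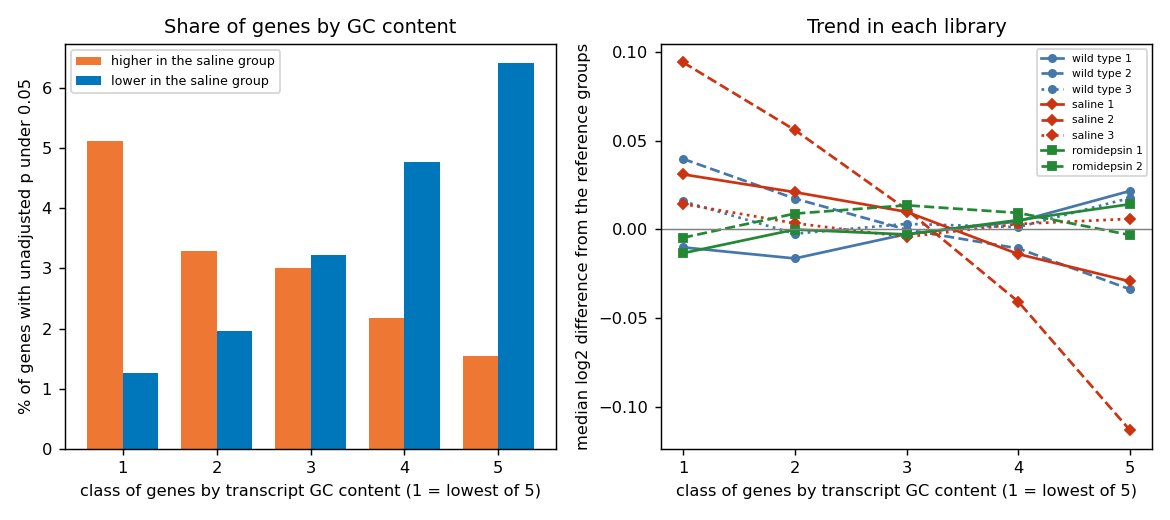
Left, the share of genes with an unadjusted p under 0.05 on each side (y axis, %) in 5 equal classes of genes by transcript GC content (x axis); right, each library's median log2 difference from the mean of the wild-type and romidepsin group means in the same classes. The lower share climbs from 1.26% to 6.41% across the classes, and saline replicate 2 has the steepest line, from 0.09 to -0.11.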

How the data were processed

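RNA sequencing of prefrontal cortex was deposited as 1 table of read counts per gene for each of 8 libraries. Per the submitters' processing notes, the authors used bcl2fastq 2.17.1.14, TopHat2 2.1.1 and HTSeq 0.6.1 with mm10; neither the annotation nor the strand setting is named there, so reads of overlapping antisense genes cannot be told apart. The deposited counts were used raw. Summary entries that name no gene were left out: 32.4% to 35.3% of counted reads fell on genes in the 7 libraries with such entries, and the table of saline replicate 1 held none. No 2 libraries agreed within sampling noise.

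Genes were kept by edgeR's filterByExpr with groups (14809 kept, 9611 removed), scaled by TMM and fitted with edgeR 4.0.16 (robust quasi-likelihood, 3 group means, all 8 libraries) in R 4.3.3. P-values were adjusted by Benjamini-Hochberg over all genes tested, with a threshold of 0.05. The script was checked on simulated counts. CPM values are counts scaled to 1000000 per TMM-scaled library; separation of libraries was judged on log2 CPM with a prior count of 2. Intervals are 95% intervals of the fit. Counts from reads without molecular identifiers limit precision by counting error and more. Replicate numbers did not pair the libraries.

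The members and the 32 gene lists were chosen with earlier results of these data known, and 2 further lists after values were seen. Named genes were Shank3, Hdac1, Hdac2, Hdac3 and Ctnnb1, 2 to 4 leading members of each list, and genes passing romidepsin against wild type. Added to these were 12 per direction with the smallest p and 6 with the widest gap, at a mean log2 CPM of at least 1. The 12 left out pseudogenes and predicted genes by symbol, with all symbols ending in Rik or starting with Mir. This dropped the protein-coding D630045J12Rik, which ranked 4 by p among all genes tested. Its log2 difference was -0.38 (SE 0.07), with an adjusted p of 0.279 in edgeR and 0.0176 in DESeq2. Other members are named as examples after their values were seen, and some genes that the rule names are not reported here. Alternatives were other scalings, filters and weights, a replicate block, thinning, limma 3.58.1 (voom), DESeq2 1.42.0, leaving out each library, and offsets for GC content and length. GC content came from GENCODE transcripts (14266 of 14809 genes matched), and positions from RefSeq GRCm38.p6 (14765 matched).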

Additional observations from a re-analysis of the deposited data

How the results depend on the processing

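The count of 0 genes passing on either side held under other scalings, weights, filters on mean level, thinning, limma-voom and offsets for GC content and length. DESeq2 passed 4 higher genes (Eomes, Fos, Gh and Gm3893) and 12 lower, with 282 higher at an unadjusted p under 0.05. Leaving out the filter passed 1 lower, and the cause was not tested. Eomes and Gh had enough counts to be tested only through the saline libraries, so the filter favoured their higher side. Gm3893 had edgeR log2 differences of 1.76 against wild type and 0.35 against romidepsin. Leaving out each library in turn gave 0 to 4 higher and 0 to 8 lower genes passing, 268 to 600 higher and 295 to 687 lower at an unadjusted p under 0.05, and, with fewer libraries to separate, 508 to 1009 above and 550 to 1025 below all others. With the replicate numbers as a replicate block, 0 genes passed and 486 higher and 598 lower had an unadjusted p under 0.05; same-numbered libraries correlated at -0.18 to 0.10, and not every library correlated best with its own number. Romidepsin against wild type passed 0 genes with upper-quartile scaling, a mean log2 CPM of at least 1, the replicate block or the offsets, 2 without the filter or with limma-voom, 4 with DESeq2, and 0 to 3 without 1 library. Hdac2 crossed 0, from -0.0025 to 0.0011 with the mean level filter, 0.0079 with 5 libraries weighted alike, 0.028 in the block, 0.00074 in limma-voom and -0.045 to 0.033 without 1 library; the cause was not tested. List medians moved by more than the spread between libraries for choroid plexus (0.14 with the mean level filter, 0.12 thinned, 0.11 to 0.31 without 1 library), corepressor (0.015 with the offsets) and acetyltransferase genes (-0.0066 with the offsets, -0.085 to -0.021 without 1 library) and neuropeptides (0.052 in the block, -0.034 to 0.046 without 1 library). Without 1 library the medians also ran from 0.00019 to 0.060 for glutamate receptors, -0.047 to -0.0046 for postsynaptic genes, -0.11 to 0.056 for upper layer markers and -0.079 to 0.071 for glucocorticoid responsive genes. Saline replicates at 7783538 and 9640524 counts limit what low genes can show.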

Other observations

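Of 10 anterior pituitary genes, a list added after values were seen, 3 had most of their counts in the saline libraries. Gh, growth hormone, had 1, 0 and 0 counts in wild type, 13, 96 and 19 under saline and 4 and 1 under romidepsin. Prl, prolactin, had 0, 0 and 1, 1, 12 and 2 and 0 and 0 counts in the same order, and Cga, the common subunit of the glycoprotein hormones, 0, 0 and 0, 0, 11 and 0 and 0 and 0. Saline replicate 2 was the highest library in these 3 genes. Of the others, Pomc, the precursor of corticotropin, had 28, 17 and 25, 32, 27 and 9 and 15 and 7 counts, and Tshb, a subunit of thyrotropin, 2, 2 and 1, 3, 0 and 1 and 4 and 2. Lhb, of luteinizing hormone, had 2, 2 and 0, 0, 0 and 0 and 0 and 2, and Fshb, Pou1f1, Pitx1 and Ghrhr had 0 or 1 count in each library.

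Some genes split the saline group, and were chosen after their values were seen. Rap1gap2, an activator of Rap GTPase hydrolysis, stood at 449, 42.3 and 37.6 CPM in saline replicates 1, 2 and 3, against 484, 452 and 391 in wild type and 499 and 469.5 with romidepsin. Saline replicates 2 and 3 were far below every other library, and saline replicate 1 lay within the wild-type range. Wdfy1, an endosomal adaptor, stood at 42.8, 20.1 and 20.6 CPM in the saline libraries, 61.2, 68.7 and 63.3 in wild type and 43.7 and 60.8 with romidepsin, with the same 2 saline libraries lowest. Trp53bp1, a DNA repair scaffold, stood at 139, 103 and 101, 147, 145 and 139 and 142 and 149.7 CPM in that order. Rap1gap2, Wdfy1 and Trp53bp1 passed without saline replicate 1 in edgeR.

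Robo3, a guidance receptor, stood at 8.58, 10.1 and 20.1 CPM in the saline group, 24.6, 28.9 and 33.1 in wild type and 19.9 and 18.8 with romidepsin. Saline replicate 3 lay just above both romidepsin libraries. The joined log2 difference was -0.93 (SE 0.24) with all libraries, and -1.36 without saline replicate 3 (adjusted p = 0.00672 in edgeR). By chromosome, X held the largest share of genes on the higher side at an unadjusted p under 0.05, 6.17% of 519 genes beside 3.06% of all genes, and 1.54% on the lower side.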
